A study of Mus musculus with 24 samples.

Results

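Tumours given the immunotoxin D2C7-IT alone were compared with tumours given the CD40 antibody αCD40 alone, both harvested 3 days after the end of treatment. The comparison takes the 6 libraries that the sample titles label in this way, 3 a side, from the 24 libraries of the series, and it covers every gene. CT-vIII cells, the mouse glioma line CT-2A transduced with mouse EGFR variant III and firefly luciferase, were implanted in the right hemisphere of each mouse. A pump delivered the agents into the brain by convection, at 0.5 µl per hour for 72 hours, from day 6 to day 9 after implantation. The D2C7-IT tumours received 0.2 µg of immunotoxin, and the αCD40 tumours received between 10 and 300 µg of antibody, with no antibody dose given tumour by tumour in the labels used here. The 2 groups share the cell line, the pump and the harvest time, and neither received both agents. The other libraries, from vehicle, combination and day 0 tumours, entered the fit to estimate the spread between replicates. The vehicle contained 100 µg of rat IgG2a in 2% albumin. The labels describe 3 tumours harvested per group from mice with a single implantation each.

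D2C7-IT joins an antibody fragment that binds EGFR and EGFR variant III to a bacterial exotoxin, which enters the cell and inactivates elongation factor 2, the product of Eef2, so that protein synthesis stops. αCD40 is an agonist of CD40, a receptor of the TNF receptor family on B cells, dendritic cells and macrophages. CD40 signals through TRAF adaptors to NF-kB, and in antigen-presenting cells it raises MHC class II, costimulatory ligands and chemokines. The tissue was sequenced whole, so fewer cells of a type and less RNA per cell cannot be told apart in any value below.

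Egfr, the gene that encodes the target of D2C7-IT and whose counts cannot separate the transduced copy from the mouse's own, was measured first in every library. Levels are given as CPM, counts per 1e6 counts of the effective library size. In the D2C7-IT tumours Egfr was at 22.3, 21.6 and 27.4 CPM in replicates 1, 2 and 3. In the αCD40 tumours it was at 330, 15.8 and 19.6 CPM. αCD40 replicate 1 lay far above all others, and replicates 2 and 3 lay below all 3 D2C7-IT tumours, so the groups overlapped. The log2 fold change of D2C7-IT over αCD40 was -2.36 ± 1.00 (SE; edgeR adjusted p = 0.24), and an exact two-sided permutation test over the 6 libraries gave p = 1.0, where 3 against 3 cannot go below 0.1. Of the 3 vehicle tumours of day 3, 2 were also high, at 283 and 343 CPM, whereas the 21 libraries outside these 3 ranged from 13.1 to 50.8 CPM. Without the 3 libraries of high Egfr the log2 fold change was 0.42 ± 0.49 (SE), a description only, since these libraries were set aside for their Egfr level.

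The library αCD40 replicate 1 stood apart in more than Egfr, so values without the 3 libraries of high Egfr are set beside the results that these libraries touch. Its mean log2 CPM over 20 cell cycle genes was 6.70, against 1.76 to 2.85 in the other 5 libraries compared. Over 16 genes of the glioma lineage it was 6.14, against 2.99 to 4.14, and over 16 neuronal genes it was 6.99, against 8.73 to 9.19. Set against their label, brain tumour, the other 5 libraries thus held low levels of cell cycle genes and high levels of neuronal genes. Depth was similar, with 30290760 to 48119840 counts per library. The part of tumour content in the results was not tested beyond leaving these libraries out.

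**Figure D1:**
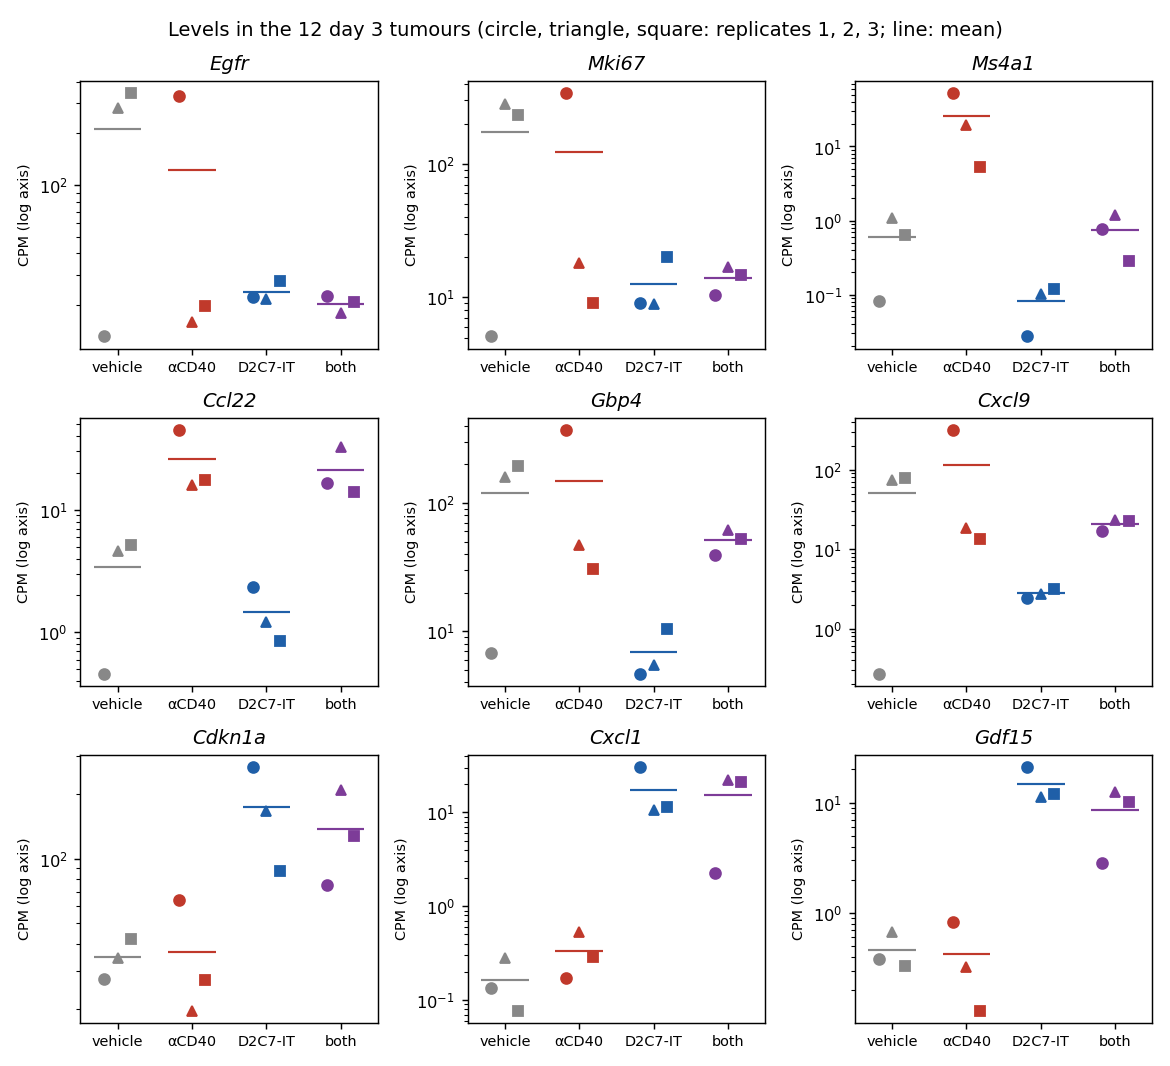
Level of 9 genes in the 12 tumours of day 3, in CPM on a log axis, with circles, triangles and squares for replicates 1, 2 and 3 and a line at the group mean; "both" is the combination. Egfr and Mki67 are high in αCD40 replicate 1 and in vehicle replicates 2 and 3, while Ms4a1, Ccl22, Gbp4 and Cxcl9 are lower in every D2C7-IT tumour than in any αCD40 tumour and Cdkn1a, Cxcl1 and Gdf15 are higher.

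Of 22280 genes tested, 31 differed between the single agents at an adjusted p under 0.05, which is 0.139% of them. Of these, 9 were higher after D2C7-IT (0.0404%) and 22 were lower (0.0987%). The genes that were lower after D2C7-IT include B cell surface and signalling genes, MHC class II chaperone genes and the chemokines Ccl22 and Ccl8. The genes that were higher are of mixed function, with Epb42, Myo15 and Plpbp among them. At an unadjusted p under 0.05, 1413 genes were higher (6.34%) and 2530 were lower (11.4%). Over all genes tested, 46.9% had a positive and 53.1% a negative log2 fold change, with a median of -0.04. These p-values come from edgeR's quasi-likelihood test with Benjamini-Hochberg adjustment over all genes tested, fitted on all 24 libraries. Where no other fit is named, passed means an adjusted p under 0.05 in this fit.

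The count of 31 depended on the libraries in the fit. With only the 6 libraries compared, no gene passed (smallest adjusted p 0.356; 477 genes higher, 2.41%, and 642 lower, 3.24%, at an unadjusted p under 0.05). Without the 3 libraries of high Egfr, 6 genes passed (0.0256%), all lower after D2C7-IT: Ms4a1, Ccl22, Ccl8, Dnase1l3, Ffar2 and Iglc1. Of these 6, 5 are among the 31. Of the αCD40 tumours, that fit held replicates 2 and 3 only, and the other libraries it left out were vehicle tumours. Its common biological coefficient of variation, the spread between replicates, was 0.307, against 0.412 with all libraries and 0.355 without αCD40 replicate 1 alone. With αCD40 replicate 1 alone left out, the smallest adjusted p in edgeR was 0.137. No gene passed when D2C7-IT replicate 1 or 2, or αCD40 replicate 1 or 2, was left out, whereas 172 passed without D2C7-IT replicate 3 (0.75%) and 171 without αCD40 replicate 3 (0.744%). In DESeq2, 820 genes passed (3.34%). Of the genes picked by rule to be named, 42 that did not pass in edgeR passed in DESeq2, and 21 in limma. The groups did not overlap in any of the 31 genes, which fixes their direction when a library is left out.

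**Figure D2:**
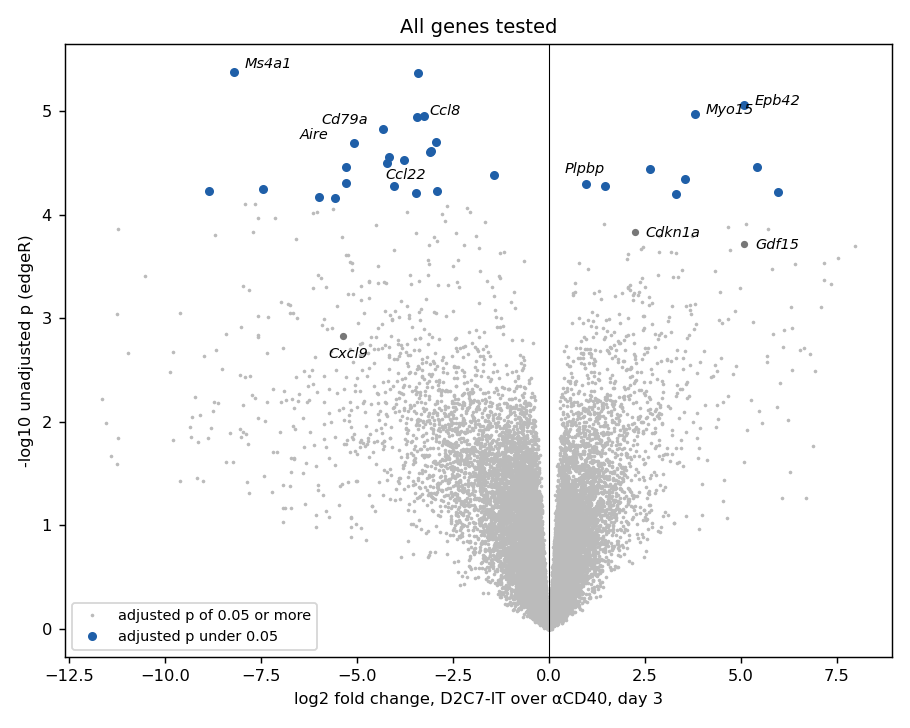
Each point is 1 of the 22280 genes tested, by its log2 fold change of D2C7-IT over αCD40 on day 3 and its unadjusted p in edgeR as -log10; blue points are the 31 genes with an adjusted p under 0.05. The 22 lower genes lie on the left, with Ms4a1 at the top, and the 9 higher genes lie on the right; Cdkn1a, Gdf15 and Cxcl9 (grey, labelled) did not pass.

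Several of the genes lower after D2C7-IT belong to B cells. Ms4a1 encodes CD20, a surface protein of B cells. It was at 0.027, 0.10 and 0.12 CPM in the D2C7-IT tumours and at 52.3, 19.7 and 5.21 CPM in the αCD40 tumours. The D2C7-IT tumours were near the limit of detection, with 10 counts over the 3 libraries against 2708, and the groups did not overlap. The log2 fold change was -8.20 ± 1.27 (SE; edgeR adjusted p = 0.043), and -7.15 ± 1.07 without the libraries of high Egfr (adjusted p = 0.035). Ms4a1 did not pass when αCD40 replicate 1 alone was left out. Cd79a, a signalling chain of the B cell receptor, was at 0.903, 1.75 and 1.43 CPM against 57.1, 20.02 and 4.56 CPM. Its log2 fold change was -4.32 ± 0.74 (edgeR adjusted p = 0.047), and -3.18 ± 0.55 without the libraries of high Egfr, where it did not pass (adjusted p = 0.073).

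Cr2 encodes complement receptor 2, part of the B cell coreceptor. Its levels were 0.246, 0.303 and 0.907 CPM in the D2C7-IT tumours and 5.97, 4.20 and 1.25 CPM in the αCD40 tumours, for a log2 fold change of -2.94 ± 0.52 (edgeR adjusted p = 0.047). Other genes of B cell identity and signalling that passed were Bank1, a scaffold of B cell receptor signalling (log2 fold change -3.26, and -2.41 without the libraries of high Egfr), Tnfrsf13c, the BAFF receptor (-4.21, and -2.77), Btla, an inhibitory receptor of B and T cells (-3.07, and -2.37), and Ighd, the heavy chain of IgD (-3.78, and -2.87). Without those libraries Cr2 was at -2.45 ± 0.52, and none of these 5 genes passed (edgeR adjusted p 0.078 to 0.13). Ighv6-3, a variable gene of the heavy chain, was at 0.055, 0 and 0 CPM against 22.1, 6.81 and 0.130 CPM. It had 2 counts over the D2C7-IT libraries and 1012 over the αCD40 libraries, a depth-scaled ratio of 546 in favour of αCD40 (exact 95% interval 151 to 4518, counting error only). The size rests on αCD40 replicates 1 and 2, and its log2 fold change of -8.86 ± 1.65 (edgeR adjusted p = 0.049) was -7.38 ± 1.56 without the libraries of high Egfr (adjusted p = 0.13). It was the 1 gene of the 31 that did not pass in limma with sample weights (-6.19 ± 2.33; limma adjusted p = 0.13). In limma the weight of αCD40 replicate 1 was 0.06, against 2.11 and 1.33 for replicates 2 and 3, so that tumour counted for little there. Variable genes share sequence, so the split of reads among them is uncertain.

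Among the 11 B cell and plasma cell genes of the list, all 11 had a negative log2 fold change (53.1% of all genes tested). Of the 11, 3 passed the test (Ms4a1, Cd79a and Cr2), all lower, against 0.0987% of all genes tested. All 11 lay lower in every D2C7-IT tumour than in any αCD40 tumour, against 6.59% of all genes tested (6.37% lay higher in the same sense). The median log2 fold change of the list was -5.11, and -3.66 without the libraries of high Egfr. Ighm and Jchain, chains of secreted IgM, were at 24.1, 25.1 and 19.4 CPM against 662, 421 and 43.4 CPM and at 1.45, 1.82 and 4.41 CPM against 162, 104 and 6.15 CPM. The summed level of the list was 32.2, 48.1 and 52.4 CPM after D2C7-IT and 1984, 1315 and 100.1 CPM after αCD40. αCD40 replicate 3 was thus closer to the D2C7-IT tumours than to the other 2 αCD40 tumours, although above the former in every gene of the list.

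MHC class II genes followed the same order. H2-DMb2, a chain of the peptide-exchange chaperone H2-DM, was at 1.12, 1.01 and 1.85 CPM after D2C7-IT and at 48.5, 13.5 and 4.12 CPM after αCD40, for a log2 fold change of -4.04 ± 0.77 (edgeR adjusted p = 0.049). H2-Ob, a chain of H2-O, which restrains that chaperone in B cells, was at 1.34, 1.98 and 2.18 CPM against 39.6, 17.0 and 3.52 CPM (-3.45 ± 0.67; adjusted p = 0.049). Neither passed without the libraries of high Egfr (adjusted p = 0.077 and 0.14). In both genes the groups did not overlap, and αCD40 replicate 3 was the lowest of its group. H2-Aa, a chain of the class II molecule itself, was at 11.7, 15.7 and 41.1 CPM against 687, 195 and 104 CPM and did not pass (-3.85 ± 1.05; edgeR adjusted p = 0.13, and -2.71 ± 0.78 without the libraries of high Egfr). Of the 10 class II genes tested, 2 passed, both lower (0.0987% of all genes), and 9 lay lower in every D2C7-IT tumour (6.59% of all genes). The exception was Ctss, a protease of the class II pathway. The list's median log2 fold change was -3.53, and -2.53 without the libraries of high Egfr.

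**Figure D3:**
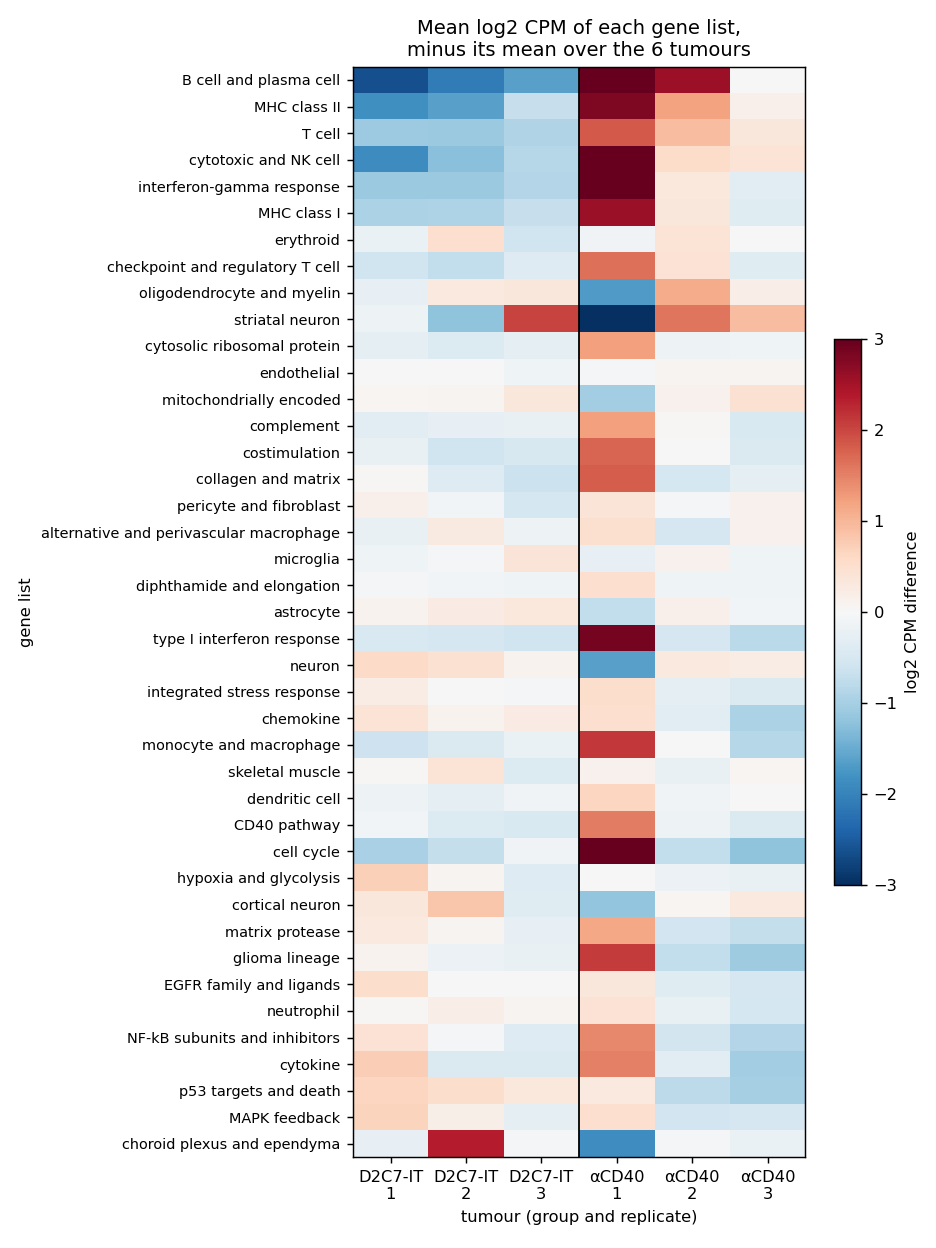
Mean log2 CPM of 41 gene lists in each of the 6 tumours, minus the list's mean over the 6, with blue for lower and red for higher and colours that end at -3 and 3; lists are ordered by their median log2 fold change without the libraries of high Egfr. The top rows (B cell, MHC class II, T cell and cytotoxic genes) are lower in all 3 D2C7-IT tumours, while cell cycle, type I interferon and glioma lineage genes are high in αCD40 replicate 1 alone.

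The chemokines Ccl22 and Ccl8 were lower after D2C7-IT with and without the libraries of high Egfr. Ccl22, which attracts CCR4-bearing T cells and is made by mature dendritic cells and macrophages, was at 2.33, 1.21 and 0.846 CPM after D2C7-IT and at 44.5, 15.99 and 17.6 CPM after αCD40. All 3 αCD40 tumours were high, replicate 3 included. The log2 fold change was -4.16 ± 0.75 (SE; edgeR adjusted p = 0.047), and -3.54 ± 0.55 without the libraries of high Egfr (adjusted p = 0.041). Ccl8, a ligand for receptors on monocytes and T cells, was at 0.903, 0.571 and 0.947 CPM against 14.3, 5.30 and 7.01 CPM. Its log2 fold change was -3.44 ± 0.58 (edgeR adjusted p = 0.043), and -2.93 ± 0.43 without the libraries of high Egfr (adjusted p = 0.035). Neither chemokine passed when αCD40 replicate 1 alone was left out. The spread of Ccl8 within the D2C7-IT group was narrow beside the gap to the lowest αCD40 tumour. On the dendritic cell list, 12 genes were tested and Ccl22 alone passed (0.0987% of all genes passed as lower). Of the 12, 5 had a positive and 7 a negative log2 fold change (46.9% and 53.1% of all genes). In every D2C7-IT tumour 1 lay higher and 2 lay lower (6.37% and 6.59%). The list's median was -0.10, and 0.27 without the libraries of high Egfr, where 7 were positive and 5 negative.

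CD40 signals to NF-kB, and the lists include genes that answer to interferon, so promoters of genes that passed were searched for short motifs. The searched windows were the 250 bases before each start in RefSeq's GRCm38.p6 annotation, on both strands. A stretch of 60 bases is shown for 3 genes that were lower after D2C7-IT, 1 chemokine and 1 B cell gene with the letters of an NF-kB motif (GGGA and CC with any 4 bases between) and 1 gene with those of the interferon-stimulated element (GAAA and GAAA with any 2 bases between), on either strand and in capitals. The windows are Ccl22 at chr8:94745528-94745587 on the plus strand, Cr2 at chr1:195176807-195176866 on the minus strand and Apol11b at chr15:77643302-77643361 on the minus strand, each written 5′ to 3′ along the gene.
Ccl22: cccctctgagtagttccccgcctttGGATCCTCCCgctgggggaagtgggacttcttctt
Cr2: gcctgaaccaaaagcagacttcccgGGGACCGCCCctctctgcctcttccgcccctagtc
Apol11b: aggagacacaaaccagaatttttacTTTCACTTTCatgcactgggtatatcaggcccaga
The NF-kB letters were in 4 of the 18 lower genes with a promoter in the table (22.2%), against 25.3% of 14310 genes tested and 17.6% of all 32851 windows. The interferon-stimulated letters were in 1 of the 18 (5.6%), against 3.3% of genes tested and 3.0% of windows. The letters of the GAS element of interferon-gamma signalling (TTC and GAA with any 3 bases between) were in 2 of the 18 (11.1%), against 7.3% of genes tested and 7.0% of windows. Those of the cell cycle homology element (TTTGAA) were in 3 of the 18 (16.7%), against 13.7% of genes tested and 5252 of the windows. The E2F letters (TTTC followed by CCGC) were in 0 of the 18, against 1.6% of genes tested and 0.9% of windows. Of the 6 higher genes with a promoter in the table, 1 held the cell cycle letters and none held the others. A match says only that the letters are there, and with 18 and 6 genes no test was made.

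The remaining genes lower after D2C7-IT are expressed in dendritic cells, lymphocytes or myeloid cells, or are of other function. Aire, a transcriptional regulator known for self-antigen expression in the thymus, was at 0.137, 0.303 and 0.242 CPM against 17.0, 5.30 and 0.834 CPM (log2 fold change -5.07 ± 0.89; edgeR adjusted p = 0.047), and at -3.75 ± 0.76 without the libraries of high Egfr (adjusted p = 0.10). Dnase1l3, a DNase secreted by dendritic cells and macrophages, was at 0.301, 0.134 and 0.322 CPM against 41.1, 3.49 and 4.69 CPM (-5.98 ± 1.17; edgeR adjusted p = 0.049), and at -3.98 ± 0.56 without the libraries of high Egfr (adjusted p = 0.035). Ffar2, a receptor for short-chain fatty acids on leukocytes, was at 0.110, 0.101 and 0.101 CPM against 9.32, 2.55 and 0.625 CPM (-5.28 ± 0.97; edgeR adjusted p = 0.047, and -3.89 ± 0.58 without the libraries of high Egfr, adjusted p = 0.035). In each of these 3 genes the D2C7-IT tumours were within a narrow low range and αCD40 replicate 1 was highest. None of the 3 passed with that replicate alone left out.

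Apol11b, of the apolipoprotein L family, and Lyz1 did not follow that order. Apol11b was at 0.082, 0 and 0.020 CPM after D2C7-IT and at 1.51, 1.81 and 1.07 CPM after αCD40, so that replicate 1 was not the highest. Its log2 fold change was -5.27 ± 1.00 (edgeR adjusted p = 0.049), and -5.26 ± 0.92 without the libraries of high Egfr (adjusted p = 0.073). Lyz1, a lysozyme gene with a close copy in Lyz2 that could share reads, was at 0.274, 0.403 and 0.343 CPM against 2.47, 1.72 and 3.52 CPM (-2.91, and -2.95 without the libraries of high Egfr). Art2b, an ADP-ribosyltransferase of T cells, was at 0, 0.034 and 0.081 CPM against 3.01, 2.13 and 1.25 CPM (-5.58, and -5.24). Il9r, the interleukin 9 receptor (-7.44, and -6.10), Slamf1, a lymphocyte surface receptor (-3.10, and -2.55), Atp2a3, a calcium pump of haematopoietic cells (-1.42, and -1.15), and Lipc, the hepatic lipase (-3.40, and -3.0016), were the other lower genes that passed. None of these 6 genes passed without those libraries.

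No gene of the T cell and cytotoxic lists passed the test, and most of them lay lower in every D2C7-IT tumour than in any αCD40 tumour. Cd8a, a chain of the coreceptor of cytotoxic T cells, was at 1.26, 1.45 and 1.27 CPM after D2C7-IT and at 17.2, 7.97 and 6.65 CPM after αCD40. The groups did not overlap, and all 3 D2C7-IT values were close together. The log2 fold change was -2.997 ± 1.05 (edgeR adjusted p = 0.19), and -2.47 ± 0.88 without the libraries of high Egfr (adjusted p = 0.28). Of 15 T cell genes, none passed, and 13 lay lower in every D2C7-IT tumour (6.59% of all genes), with a median log2 fold change of -2.45 over the 15. Without the libraries of high Egfr the median was -1.85. Trbc2, a T cell receptor constant gene, was one of the 2 that overlapped, at 12.9, 6.72 and 2.30 CPM against 12.6, 7.46 and 4.07 CPM. The other was Cd4, which microglia and macrophages can also express.

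Of 14 cytotoxic and NK cell genes, none passed and all 14 lay lower in every D2C7-IT tumour (6.59% of all genes). Their median log2 fold change was -3.20, and -1.57 without the libraries of high Egfr. Ifng, the gene of interferon-gamma, was at 0.027, 0.034 and 0.040 CPM against 5.65, 0.770 and 0.417 CPM, with 4 counts over the D2C7-IT libraries and 241 over the αCD40 libraries (log2 fold change -5.93 ± 1.38; edgeR adjusted p = 0.083, and -3.99 ± 0.95 without the libraries of high Egfr). Gzmb, the protease granzyme B, was at 0.821, 0.739 and 1.05 CPM against 46.6, 2.49 and 3.08 CPM. Its log2 fold change of -4.31 ± 1.32 (edgeR adjusted p = 0.16) became -1.68 ± 0.77 without the libraries of high Egfr. Gzmk, the granzyme with the smallest p, was at 0.219, 0.067 and 0.423 CPM against 2.02, 1.66 and 1.41 CPM, where αCD40 replicate 1 did not stand apart (-2.77; adjusted p = 0.054).

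Genes that answer to interferon-gamma showed the same order at a smaller size once the libraries of high Egfr were left out. Gbp4, a guanylate-binding protein of cell-autonomous defence whose family members share sequence, was at 4.68, 5.48 and 10.3 CPM after D2C7-IT and at 367, 46.9 and 30.4 CPM after αCD40. Its log2 fold change was -4.44 ± 1.00 (edgeR adjusted p = 0.076), and -2.50 ± 0.49 without the libraries of high Egfr (adjusted p = 0.092). Cxcl9, a chemokine for CXCR3-bearing T cells, was at 2.44, 2.76 and 3.18 CPM against 313, 18.7 and 13.6 CPM (-5.36 ± 1.44; adjusted p = 0.12, and -2.53 ± 0.73 without the libraries of high Egfr). The D2C7-IT tumours were close together in both genes and below every αCD40 tumour.

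Of the 20 interferon-gamma genes, none passed and 13 lay lower in every D2C7-IT tumour, a position held by 6.59% of all genes. The list's median log2 fold change was -2.75, and -0.99 without the libraries of high Egfr. Cxcl10, another ligand of CXCR3, did not follow it: 53.1, 31.8 and 33.3 CPM against 439, 26.1 and 16.6 CPM, so that all 3 D2C7-IT tumours were above αCD40 replicates 2 and 3. MHC class I genes, which present peptides to CD8 T cells, had 11 of 13 members in that position (6.59% of all genes) and none that passed (median -2.09, and -0.74 without the libraries of high Egfr). In contrast, of 20 type I interferon genes 3 lay lower in every D2C7-IT tumour (6.59% of all genes), and their median moved from -2.17 to 0.06 without those libraries. Isg15, a ubiquitin-like protein of that response, was at 18.4, 13.5 and 15.997 CPM against 195, 10.986 and 12.4 CPM.

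The CD40 pathway itself was measured in 9 genes, of which none passed. Cd40 was at 1.92, 1.28 and 1.19 CPM after D2C7-IT and at 35.3, 5.21 and 4.46 CPM after αCD40 (log2 fold change -3.36 ± 0.90; edgeR adjusted p = 0.12, and -1.74 ± 0.61 without the libraries of high Egfr). Traf1, an adaptor of the pathway and a target of NF-kB, was at 5.01, 2.69 and 5.56 CPM against 61.2, 13.7 and 9.98 CPM. Of the 9, these were the 2 that lay lower in every D2C7-IT tumour (6.59% of all genes). The other TRAF adaptors tested overlapped, and the list's median moved from -0.52 to 0.28 without the libraries of high Egfr. Cd274, the ligand PD-L1, was at 12.5, 10.2 and 11.97 CPM against 139, 40.6 and 16.6 CPM (-2.50 ± 0.83; edgeR adjusted p = 0.18, and -1.31 ± 0.68 without the libraries of high Egfr). The checkpoint list had 3 of 12 genes lower in every D2C7-IT tumour (6.59% of all genes) and a median of -1.43, or -0.68 without the libraries of high Egfr.

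The 9 genes that were higher after D2C7-IT all lay higher in every D2C7-IT tumour than in any αCD40 tumour. Epb42, a transglutaminase-related protein of the red cell membrane skeleton, was at 1.81, 3.26 and 0.987 CPM after D2C7-IT and at 0.028, 0.089 and 0.052 CPM after αCD40. Its log2 fold change was 5.08 ± 0.84 (SE; edgeR adjusted p = 0.043), and 4.78 ± 1.01 without the libraries of high Egfr (adjusted p = 0.11). The other 7 red cell genes tested had negative log2 fold changes (53.1% of all genes), and none of them passed. Tgm5, the transglutaminase gene next to Epb42 on chromosome 2 (Epb42 at 121017891 to 121037072 and Tgm5 at 121046111 to 121085841, both on the minus strand of GRCm38), had 85 counts over the D2C7-IT libraries and 1 over the αCD40 libraries. The depth-scaled ratio was 78.7 (exact 95% interval 13.75 to 3145, counting error only).

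Myo15, an unconventional myosin of inner ear hair cells, was at 5.04, 6.92 and 2.80 CPM against 0.199, 0.326 and 0.521 CPM (log2 fold change 3.80 ± 0.63; edgeR adjusted p = 0.043). Tmem236 was at 2.93, 3.56 and 1.67 CPM against 0.511, 0.148 and 0.156 CPM (3.31 ± 0.64; edgeR adjusted p = 0.049), and Cuzd1 at 1.97, 1.92 and 0.766 CPM against 0.142, 0.059 and 0.182 CPM (3.55 ± 0.67; adjusted p = 0.049). In these genes D2C7-IT replicate 3 was the lowest of its group. Plpbp, a pyridoxal phosphate-binding protein, was the only abundant one among the 9, at 164, 131 and 84.2 CPM against 55.2, 69.5 and 68.4 CPM (0.97 ± 0.19; edgeR adjusted p = 0.049). Slc5a2, a glucose transporter known from the kidney, had 95 counts against 2 (ratio 43.99, interval 11.85 to 368.5). Gm45053 and Gm15904, predicted genes, were the other 2. None of the 9 passed without the libraries of high Egfr, where their log2 fold changes stayed positive.

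No listed gene of growth arrest, death or stress passed the test, and several lay higher in every D2C7-IT tumour. Cdkn1a, the cell cycle inhibitor p21 and a p53 target, was at 266, 167 and 87.4 CPM after D2C7-IT and at 63.9, 19.6 and 27.1 CPM after αCD40. The groups did not overlap, and the log2 fold change was 2.23 ± 0.47 (edgeR adjusted p = 0.060), or 2.88 ± 0.51 without the libraries of high Egfr (adjusted p = 0.073). Gdf15, a secreted stress cytokine, was at 20.8, 11.3 and 11.9 CPM against 0.824, 0.326 and 0.130 CPM (5.10 ± 1.10; edgeR adjusted p = 0.067, and 6.00 ± 1.38 without the libraries of high Egfr). No gene of the p53 list passed, 12 of its 14 members had a positive log2 fold change (46.9% of all genes), and 3 lay higher in every D2C7-IT tumour (6.37% of all genes). The list's median was 0.39, and 0.65 without the libraries of high Egfr.

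In the integrated stress response, none of 14 genes passed. Ppp1r15a, which restores translation initiation after stress, was at 77.6, 56.1 and 36.2 CPM against 21.2, 11.3 and 14.6 CPM (log2 fold change 1.85 ± 0.51; edgeR adjusted p = 0.13, and 2.12 ± 0.62 without the libraries of high Egfr). Atf3 and Ddit3, transcription factors of the same response, also lay higher in every D2C7-IT tumour, at 18.6 to 58.6 CPM against 2.40 to 11.8 CPM and at 37.9 to 57.5 CPM against 28.0 to 29.0 CPM. These 3 of the 14 lay higher in every D2C7-IT tumour (6.37% of all genes) and 1 lay lower (6.59% of all genes). That gene, Phgdh, the first enzyme of serine synthesis, was at 24.4, 41.7 and 69.1 CPM against 228, 95.9 and 81.4 CPM. The list's median was -0.10, and 0.17 without the libraries of high Egfr. Eef2, which encodes the factor that the toxin inactivates, was at 1426, 1402 and 1367 CPM against 2497, 1459 and 1386 CPM (-0.35 ± 0.22; edgeR adjusted p = 0.40, and -0.03 ± 0.11 without the libraries of high Egfr).

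The EGFR ligand Hbegf was at 149.9, 50.8 and 31.1 CPM after D2C7-IT and at 25.2, 12.2 and 12.95 CPM after αCD40 (log2 fold change 2.20 ± 0.54; edgeR adjusted p = 0.094, and 2.60 ± 0.64 without the libraries of high Egfr). Nrg1, a ligand of the related ERBB receptors, was at 21.03, 16.7 and 19.7 CPM against 8.95, 14.4 and 10.8 CPM. Both lay higher in every D2C7-IT tumour, as did Ereg, another EGFR ligand present at under 1 CPM, which makes 3 of 12 genes of the family (6.37% of all genes). Egfr itself and Erbb2 overlapped between the groups. Among 15 feedback genes of MAP kinase signalling, none passed, 10 had a positive log2 fold change (46.9% of all genes), and 2, Spry2 and Egr1, lay higher in every D2C7-IT tumour (6.37% of all genes). Egr1, an immediate early transcription factor, was at 1135, 777 and 398 CPM against 65.2, 217 and 251 CPM (2.12 ± 0.65; edgeR adjusted p = 0.16, and 1.71 ± 0.68 without the libraries of high Egfr).

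Of 16 genes tested on the chemokine list, 1 passed (Ccl8, lower, against 0.0987% of all genes). Ccl22, which also passed, was counted on the dendritic cell list instead. Of the 16, 3 lay higher in every D2C7-IT tumour (6.37% of all genes) and 2 lay lower (6.59%), with a median log2 fold change of 0.12. Among the 3 were Cxcl1 and Cxcl2, which act on neutrophils. Cxcl1, a ligand of CXCR2, was at 30.2, 10.6 and 11.3 CPM after D2C7-IT and at 0.170, 0.533 and 0.287 CPM after αCD40. The lowest D2C7-IT tumour was far above the highest αCD40 tumour, and the log2 fold change was 5.71 ± 1.19 (edgeR adjusted p = 0.060), or 5.39 ± 1.49 without the libraries of high Egfr (adjusted p = 0.19). Cxcl2, of the same family, was at 6.02, 2.99 and 1.51 CPM against 0.426, 0.089 and 0 CPM, and Csf3, the growth factor G-CSF, at 4.87, 0.908 and 1.67 CPM against 0.085, 0.178 and 0.026 CPM. Lcn2, an iron-binding protein of neutrophil granules that astrocytes also make, was at 79.2, 115 and 39.3 CPM against 14.3, 12.9 and 2.79 CPM (2.96 ± 1.03; edgeR adjusted p = 0.19, and 3.31 ± 1.30 without the libraries of high Egfr). It was the 1 gene of 12 on the neutrophil list that lay higher in every D2C7-IT tumour, a share near the 6.37% of all genes. Of those 12, 4 had a positive and 8 a negative log2 fold change (46.9% and 53.1% of all genes). None passed, and the median was -0.07, or 0.61 without the libraries of high Egfr. Without the libraries of high Egfr, 8 of the 12 had a positive and 4 a negative log2 fold change (11037 and 11035 of all 22082 genes). The list's mean log2 CPM was -0.41, -0.25 and -0.38 after D2C7-IT and -0.01, -0.68 and -0.99 after αCD40. Of single markers, S100a8 lay between 0.156 and 0.571 CPM, and Ly6g had at most 3 counts over the 6 libraries.

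**Figure D4:**
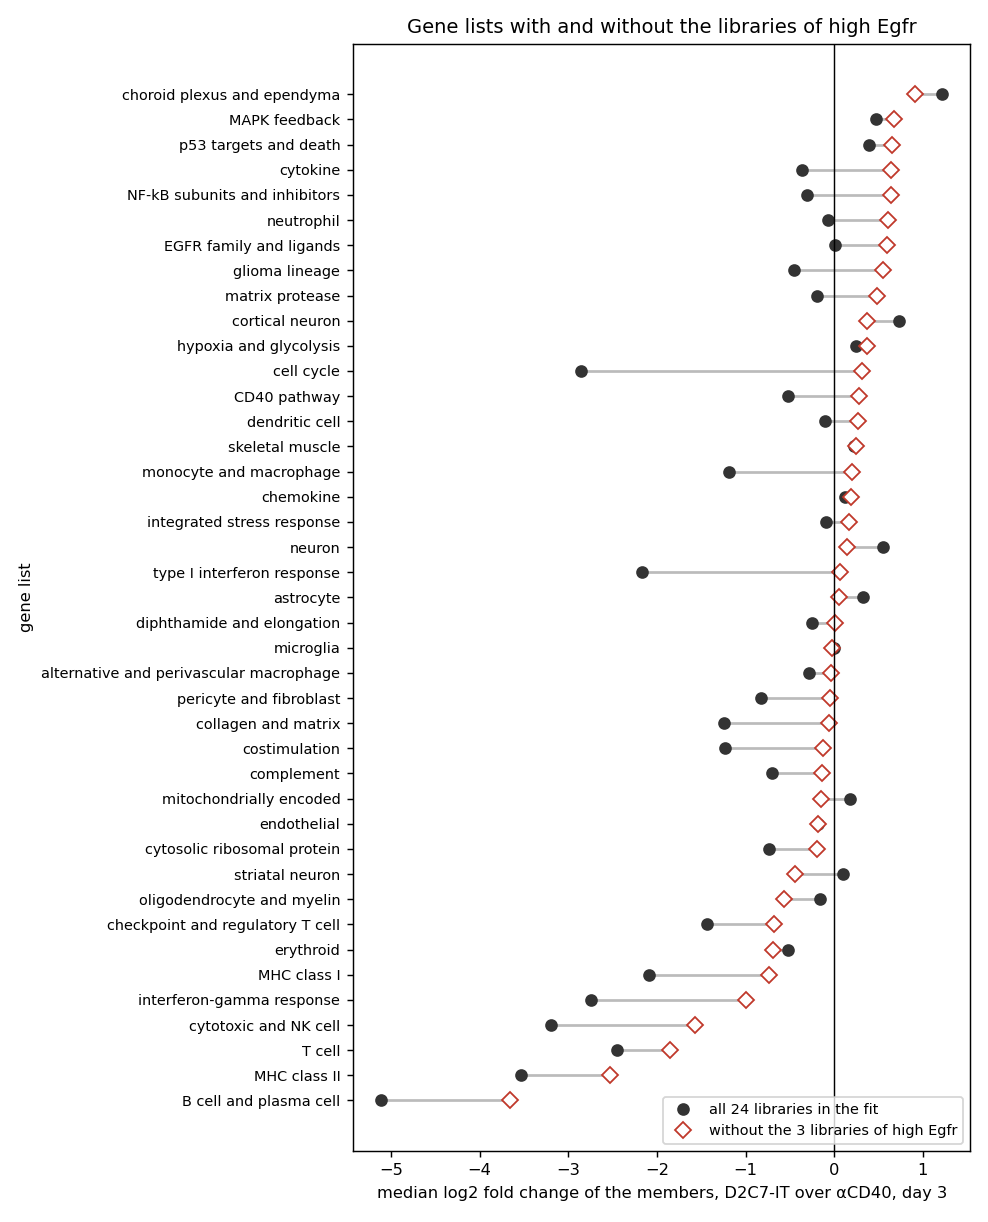
Median log2 fold change of D2C7-IT over αCD40 on day 3 for the members of 41 gene lists, with all 24 libraries in the fit (filled circles) and without the 3 libraries of high Egfr (open diamonds). B cell, MHC class II, T cell and cytotoxic lists stay below 0 in both, while the cell cycle list moves from -2.85 to 0.31 and the type I interferon list from -2.17 to 0.06.

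Several lists changed direction without the 3 libraries of high Egfr. The median of the 20 cell cycle genes was -2.85 with all libraries and 0.31 without them, and none of these genes passed or lay apart in the 3 against 3. Mki67, a marker of dividing cells, was at 9.09, 8.87 and 20.1 CPM after D2C7-IT and at 339, 18.034 and 9.12 CPM after αCD40. The glioma lineage list moved from -0.45 to 0.55, the monocyte and macrophage list from -1.19 to 0.20, the NF-kB list from -0.31 to 0.64 and the cytokine list from -0.36 to 0.64. Of the 15 genes on the monocyte and macrophage list none passed. Without the libraries of high Egfr, 11 of them had a positive and 4 a negative log2 fold change (11037 and 11035 of all 22082 genes). Ly6c2 and Plac8 were among the 4 and kept a negative sign, so they do not stand for the list. Ly6c2 was at 0.602, 1.01 and 2.42 CPM against 196, 26.1 and 6.83 CPM. Its log2 fold change was -5.81 ± 1.38 (edgeR adjusted p = 0.084), or -3.60 ± 0.91 without the libraries of high Egfr. The microglia list had a median of 0.00, and -0.03 without those libraries.

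Over 12 striatal neuron genes the mean log2 CPM was 5.56, 4.50 and 7.72 in D2C7-IT replicates 1, 2 and 3 and 2.49, 7.31 and 6.63 in αCD40 replicates 1, 2 and 3. Drd1, a dopamine receptor of striatal neurons, was at 34.3, 11.8 and 123 CPM against 2.84, 74.8 and 49.4 CPM, so both groups held low and high tumours. Ttr, the transthyretin gene of the choroid plexus, was at 1076 CPM in D2C7-IT replicate 2 and between 0.170 and 6.49 CPM in the other 5 tumours. The choroid plexus and ependyma list had a mean log2 CPM of 1.23, 3.84 and 1.44 after D2C7-IT and of -0.39, 1.45 and 1.28 after αCD40. Of its 10 genes none passed, 9 had a positive log2 fold change (46.9% of all genes) and 4 lay higher in every D2C7-IT tumour (6.37% of all genes), with a median of 1.22, or 0.91 without the libraries of high Egfr. These 4 include Foxj1, a regulator of motile cilia in ependymal cells, at 19.1, 22.3 and 19.8 CPM against 6.85, 14.3 and 7.38 CPM, whereas Ttr and other genes of the choroid plexus were high in D2C7-IT replicate 2. Whether the piece of brain that was taken differed between tumours was not tested. The astrocyte gene Gfap was at 1528, 1552 and 1494 CPM after D2C7-IT and at 918, 1367 and 885 CPM after αCD40 (log2 fold change 0.53 ± 0.42; edgeR adjusted p = 0.52, and 0.43 ± 0.49 without the libraries of high Egfr). It was 1 of 2 among 14 astrocyte genes that lay higher in every D2C7-IT tumour (6.37% of all genes).

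Endothelial genes had a median log2 fold change of -0.19 with and without the libraries of high Egfr. Kdr, the VEGF receptor with the smallest p of the list, was at 14.9, 14.8 and 15.7 CPM after D2C7-IT and at 41.6, 21.4 and 21.5 CPM after αCD40 (log2 fold change -0.89 ± 0.21; edgeR adjusted p = 0.087, and -0.51 ± 0.14 without the libraries of high Egfr). Of 16 endothelial genes, 4 lay lower in every D2C7-IT tumour (6.59% of all genes) and none higher (6.37%). Of 14 complement genes, 4 were in that lower position (6.59% of all genes), among them C2, at 2.38, 2.92 and 2.94 CPM against 7.73, 6.43 and 7.04 CPM, and Cfp, at 15.5, 20.5 and 19.8 CPM against 92.8, 28.4 and 25.9 CPM. C2 had nearly the same level in all 3 αCD40 tumours, the library of high Egfr included.

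Whether the difference between the agents changed from the end of treatment (day 0) to day 3 was tested as an interaction, and 0 of 22280 genes passed in edgeR (0%). At an unadjusted p under 0.05, 551 genes were higher (2.47%) and 1031 lower (4.63%), and after adjustment 28 genes passed in DESeq2 (0.118%) and 1 in limma (0.00449%). Day 0 levels stood in different relations for different genes. Ms4a1 was at 0.460 ± 0.446 CPM (SD, n = 3) after αCD40 and at 0.122 ± 0.026 CPM after D2C7-IT on day 0, far under the αCD40 level of day 3, 25.8 ± 24.1 CPM. Ccl22 was already at 9.17 ± 5.63 CPM after αCD40 and at 2.00 ± 0.92 CPM after D2C7-IT on day 0. Cxcl1 was at 0.568 ± 0.109 CPM after αCD40 and at 57.2 ± 17.1 CPM after D2C7-IT on day 0, so the D2C7-IT level of day 3, 17.4 ± 11.1 CPM, was the lower of its 2 days. Gdf15 was at 0.344 ± 0.288 CPM against 6.66 ± 3.45 CPM on day 0. Cd40 was at 2.56 ± 2.02 CPM against 8.88 ± 2.22 CPM on day 0, the reverse of its order on day 3, and that interaction did not pass either (log2 -5.14; edgeR adjusted p = 0.65).

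The levels in the tumours given both agents or vehicle on day 3 are set beside the single agents as values, since comparisons among these groups share libraries. Ms4a1 was at 0.749 ± 0.451 CPM (SD, n = 3) in the combination and at 0.599 ± 0.498 CPM in the vehicle tumours, both under the lowest αCD40 tumour. Ccl22 was at 21.1 ± 10.1 CPM in the combination, within the range of the αCD40 tumours, and at 3.40 ± 2.56 CPM in the vehicle tumours. Cxcl1 was at 15.3 ± 11.3 CPM and Gdf15 at 8.53 ± 5.05 CPM in the combination, against 0.164 ± 0.104 CPM and 0.464 ± 0.186 CPM in the vehicle tumours. Epb42 and Myo15 were at 2.65 ± 1.69 and 5.37 ± 3.01 CPM in the combination and at 0.076 ± 0.006 and 0.303 ± 0.108 CPM in the vehicle tumours. Of these genes, the combination tumours thus held Ccl22 at a level like that of the αCD40 tumours and Cxcl1, Epb42 and Myo15 at means like those of the D2C7-IT tumours.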

How the data were processed

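RNA from flash-frozen tissue was enriched for polyA and sequenced. The authors deposited raw read counts per Ensembl gene. Per the submitters' processing notes, the tools were STAR 2.5.2b, featureCounts (Subread 1.5.2), Trimmomatic 0.36 and bcl2fastq 2.17, on GRCm38. For counting, neither strand nor annotation release is given in the sources used here, so overlapping and antisense genes cannot be separated. Symbols and positions came from GENCODE M21 for 49056 of 49315 genes. The 6 tables held 36 columns, of which 12 repeated another without a difference.

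Counts were fitted with edgeR 4.0.16 in R 4.3.3 (low-count filter, TMM scaling, robust quasi-likelihood F test, 1 mean for each of 8 groups, 16 residual degrees of freedom). DESeq2 1.42.0 and limma 3.58.1 were alternatives, with 14 planned and 1 added after seeing the data. The groups and lists were chosen with earlier results of these data known. Genes named were the called genes of largest change with a mean of at least 1 CPM and no overlap (up to 8 each way, filled by smallest p), up to 6 each way without the libraries of high Egfr, the 2 of smallest p from each list, and a fixed set; the other genes that passed were added, and further list members were named after their values were seen. In simulated data of 21830 genes for this comparison, the fit recovered 84% and 88% of genes changed by a log2 of -3 and 3, and 98% of those changed by -5 and 5, with 7 false calls. The simulation gave each unchanged gene the same level in all libraries, scaled for depth, and changed no gene of low count. It held no outlying library such as αCD40 replicate 1, so these shares may be higher than in the libraries compared. Replicates of one group differed by more than sampling noise (chi-square per degree of freedom 35.1 to 629.9). Replicate numbers were tested for pairing by the correlation of deviations from the group means. Interaction and combination values share libraries with the main comparison.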

Additional observations from a re-analysis of the deposited data

How the results depend on the processing

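The number of genes that passed did not hold across the alternatives; the 31 have groups that do not overlap, so their direction, the same in each alternative that tested them, says nothing of stability. Genes higher and lower after D2C7-IT numbered 283 and 537 in DESeq2, 462 and 242 in limma voom with sample weights, 3 and 13 without the low-count filter, 0 and 0 with only the 6 libraries compared, 0 and 0 with only the 12 of day 3, 0 and 6 without the 3 libraries of high Egfr, and 0 and 0 with only the 5 libraries compared of low Egfr, an alternative chosen after seeing the data. Leaving out 1 library gave 0 to 128 higher and 0 to 153 lower: 0 without D2C7-IT replicate 1 or 2 or αCD40 replicate 1 or 2, 128 and 44 without D2C7-IT replicate 3, and 18 and 153 without αCD40 replicate 3. With DESeq2's size factors 28 genes passed. For the interaction, 1 gene was higher and 27 were lower in DESeq2, 1 was lower in limma, and 0 to 2 were lower when 1 library was left out.

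With the replicate block, 0 genes were higher and 0 lower (smallest adjusted p 0.0741 in edgeR; 1265 and 2016 at an unadjusted p under 0.05). The correlations of same-numbered tumours were 0.15, -0.09 and 0.12. D2C7-IT replicate 1 correlated best with its own number, and D2C7-IT replicates 2 and 3 did not. Deviations from a mean of 3 libraries are tied within a group, so these correlations cannot decide whether tumours of the same number were handled together.

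Values given in this order are without the 3 libraries of high Egfr, with the 5 libraries of low Egfr, and the lowest and highest when 1 library was left out. Egfr was at 0.42, 0.42 and -2.87 to 0.42, and at 0.32 in limma, where αCD40 replicate 1 had a sample weight of 0.06. Genes named among many that reversed somewhere were Cdkn2a (0.16, 0.17, -4.71 to 0.17), Chil3 (0.060, 0.065, -4.02 to 0.066), Drd1 (-0.14, -0.14, -0.88 to 1.11), Hmga2 (3.61, 3.62, -7.66 to 3.61), Mmp9 (0.48, 0.49, -2.35 to 0.49), Nfkb1 (0.11, 0.12, -1.49 to 0.12), P2ry12 (-0.12, -0.12, -0.12 to 0.44), Ppp1r1b (-0.081, -0.076, -0.075 to 1.28), Sox10 (-0.058, -0.051, -0.055 to 1.08), mt-Co1 (-0.040, -0.034, -0.035 to 0.53) and mt-Nd5 (-0.048, -0.042, -0.042 to 0.62). Ttr (-2.492 to 7.53) and Mbp (-0.82 to 0.59) did so only when 1 library was left out, D2C7-IT replicate 2 and αCD40 replicate 2. In limma Drd1 was at -1.42, Hmga2 at 3.23, Mmp9 at 0.70, P2ry12 at -0.16, Ppp1r1b at -0.35, Sox10 at -0.0081, mt-Co1 at -0.01104 and mt-Nd5 at -0.01713. None of these genes had passed, and the cause was not tested.

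Of the 41 lists, 15 changed the sign of their median without the 3 libraries of high Egfr. The B cell, MHC class II, T cell, cytotoxic, interferon-gamma, MHC class I and checkpoint lists kept theirs in every alternative run. So did lists of other kinds, among them the neuron, astrocyte, endothelial, collagen and ribosomal protein lists. In all of the former but the checkpoint list, most members do not overlap between the groups. Leaving out a library then cannot turn the sign of the median, so that sign says nothing of stability. With 3 tumours a side, 1 of them apart, a gene that did not pass is not shown to be equal in the groups. Genes with under 1 CPM rest on few counts.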

Other observations

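Some gene groups and single genes not described above were also measured. The 15 cytosolic ribosomal protein genes had a median log2 fold change of -0.74 with all libraries and -0.19 without the libraries of high Egfr, and 10 of the 15 lay lower in every D2C7-IT tumour (6.59% of all genes tested). Their summed level was 3620 to 3993 CPM after D2C7-IT and 11820, 4261 and 4412 CPM after αCD40. The 14 hypoxia and glycolysis genes had a median of 0.25, or 0.37 without those libraries, and a mean log2 CPM of 7.63, 6.99 and 6.53 in the D2C7-IT tumours against 6.89, 6.74 and 6.69 in the αCD40 tumours, so D2C7-IT replicate 1 was highest and replicate 3 lowest. Lif, a cytokine of the interleukin 6 family, was at 92.6, 5.85 and 5.08 CPM after D2C7-IT and at 16.6, 1.07 and 0.704 CPM after αCD40. Ccl2, a chemokine for monocytes, was at 23.4, 14.7 and 18.9 CPM against 45.5, 3.46 and 1.62 CPM. In both genes every D2C7-IT tumour lay above αCD40 replicates 2 and 3 and at least 1 lay below replicate 1.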
